A study of Mus musculus with 10 samples.

Results

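The regions described here carried H4K5ac, H4K5bu and H4K8bu in mouse round spermatids, had no island of H4K8ac there, and had no island of any of these marks in spermatocytes. They were found by joining the enriched islands of all 8 deposited lists wherever islands shared at least 1 bp, and by keeping regions of chromosomes 1 to 19 with exactly this set of lists. The rule selected 3243 of 58242 autosomal regions, 5.57%. The members were chosen by measured values, namely the islands called in the 8 lists, so their enrichment is given as a description. The chromatin came from testis of Oncins France 1 mice, fractionated into spermatocytes and round spermatids, and no genotype or treatment set the groups apart. Each mark was immunoprecipitated from about 100 ug of mononucleosomes of each stage with 5 ug of a rabbit antibody (the butyryl antibodies from a supplier, the acetyl antibodies a gift), in a buffer with 10 mM sodium butyrate, which inhibits many histone deacetylases. Each stage and mark had 1 library, and each stage also had 1 input library, sequenced without immunoprecipitation. The lists hold no expression by which the purity of the cell fractions could be checked. With no replicates, nothing was tested between groups. The intervals given are 95%. For shares and folds they reflect the error of counting alone. For medians they give the uncertainty of the median with regions taken as independent draws, and not the range of the regions. None of them includes variation between libraries, which 1 library per stage and mark cannot show.

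Spermatocytes are the germ cells in meiosis, and round spermatids are the haploid cells that follow, before most histones are replaced by transition proteins and protamines. Lysines 5 and 8 lie in the tail of histone H4. Acetylation removes the positive charge of a lysine, and butyrylation does the same with a longer acyl chain, so the 2 modifications exclude each other on 1 lysine of 1 histone molecule. In male germ cells, BRDT, a testis-specific protein of the BET family, binds H4 tails that are acetylated at both lysines through its first bromodomain. A region with H4K5ac, H4K5bu and H4K8bu but no H4K8ac island is thus one in which the acetyl mark of only 1 of these lysines was called. A missing island means that the place was not called, not that the mark was measured to be absent, because the lists hold no values outside islands.

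In these regions H4K5ac had the highest median fold over input, and the folds of both butyryl marks were about equal. The fold is the number of ChIP reads over the number of input reads in a region's islands, scaled by the ratio of the library sizes. For H4K5ac its median over the 3243 regions was 3.50 (3.45 to 3.55). The median was 2.82 (2.78 to 2.85) for H4K5bu and 2.82 (2.79 to 2.86) for H4K8bu. From the 5th to the 95th percentile of regions, the H4K5ac fold ran from 2.29 to 5.57. For H4K5bu that range was 1.96 to 4.33, and for H4K8bu it was 1.92 to 4.41. The reads behind these values were few, with a median of 69 ChIP and 42 input reads per region for H4K5ac, 73 and 39 for H4K5bu, and 83 and 45 for H4K8bu. In 2875 regions (88.7%) all 3 folds were above 2, in 90 regions all were above 4, and in 20 regions all were below 2. H4K5ac had the highest fold of the 3 marks in 2367 regions (73.0%), H4K5bu in 452 and H4K8bu in 424. H4K5ac led in a larger share of the new regions with all 4 marks (76.9%) and of the regions with all 4 marks in both stages (89.1%). Over its whole list H4K5ac also had a higher median fold, 4.55, than H4K5bu (3.49) and H4K8bu (3.51). Each mark was read with its own antibody, so the order of folds does not give the order of the amounts of the marks.

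The regions were short and had low folds for round spermatids. Their median length was 3000 bp, the 5th and 95th percentiles were 2000 and 5600 bp, and together they covered 10.7 Mb. The median length was 3400 bp in new regions with all 4 marks and 8200 bp in regions with all 4 marks in both stages. Joining islands of more lists can lengthen a region, and the part of this was not tested. Most of their islands fell below the median fold of their own list on chromosomes 1 to 19, namely 83.6% for H4K5ac, 79.6% for H4K5bu and 79.9% for H4K8bu. The 2773 regions that had all 4 marks in round spermatids and none in spermatocytes were only slightly stronger, with median folds of 3.69 (3.66 to 3.74), 2.95 (2.91 to 2.97) and 2.94 (2.90 to 2.98). Their H4K8ac fold had a median of 2.45 (2.42 to 2.47). The 15547 regions with all 4 marks in both stages had far higher medians, 6.26, 4.70 and 4.26 for H4K5ac, H4K5bu and H4K8bu, and 3.45 for H4K8ac. Input reads were about equally dense in both sets of new regions, with medians of 18.2 to 18.8 per kb over the 3 lists in the regions without H4K8ac and 18.6 to 18.9 in the new regions with 4 marks. In regions with all 4 marks in both stages the input density was lower, with medians of 16.6 to 16.8 per kb over these lists. Its part in their higher folds was not tested.

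**Figure D1:**
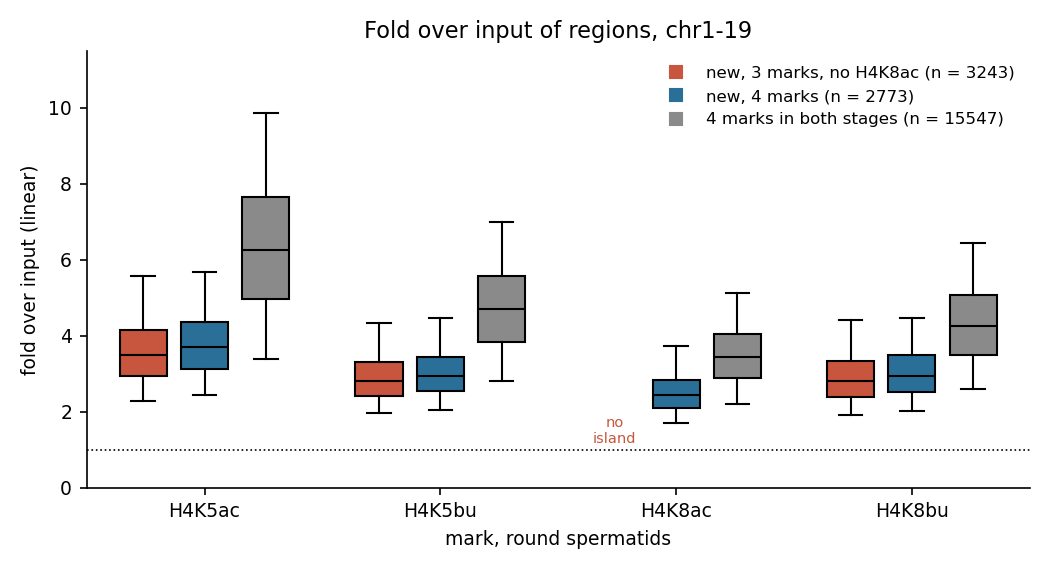
Fold over input in round spermatids (linear axis) for each mark, in new regions without H4K8ac, new regions with all 4 marks, and regions with all 4 marks in both stages; the box is the middle 50% of regions, the line the median and the whiskers the 5th and 95th percentiles. The regions without H4K8ac lie just below the new regions with 4 marks for each of the 3 marks, with medians of 3.50 and 3.69 for H4K5ac.

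Within a region the 3 islands overlapped, which the joining by overlap largely fixed in advance. With 1 island per list, only a chain whose end islands missed each other could lack a stretch shared by all 3. In 3198 regions each list had exactly 1 island, and in 3192 of these (99.8%) all 3 islands shared a stretch of DNA, with a median of 1600 bp or 55% of the region. The centres of any pair of islands were a median of 300 bp apart, little more than the 200 bp step of the island grid. The shared bases of a pair, divided by the bases in either, had medians of 0.69 for H4K5ac with H4K5bu, 0.69 for H4K5ac with H4K8bu and 0.67 for H4K5bu with H4K8bu. The H4K8bu island was the longest in 38.6% of regions, that of H4K5ac in 30.1% and that of H4K5bu in 17.6%. In the new regions with 4 marks, the islands of these 3 marks shared a stretch in 99.9%, also with 300 bp between centres. That stretch was longer, with a median of 2000 bp or 60% of the region, and the shared bases of the same pairs had higher medians of 0.73, 0.73 and 0.71.

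Among new regions that lacked exactly 1 mark, the missing mark was H4K8ac in most. Of 58242 regions, 12895 (22.1%) had any island in round spermatids and none in spermatocytes. Of these, 3575 had exactly 3 marks, and H4K8ac was the missing one in 3243 (90.7%), H4K8bu in 160, H4K5bu in 87 and H4K5ac in 85. The mirror set, called in spermatocytes and not in round spermatids, had 2799 regions with exactly 3 marks. H4K8ac was missing in 1394 of them (49.8%), H4K5bu in 897, H4K8bu in 376 and H4K5ac in 132.

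The round spermatid H4K8ac list was the shortest of the 8, with 28031 islands and 4768412 ChIP reads in them, against 34807 to 41319 islands and 8367957 to 9227752 reads for the other marks of that stage. Reads inside islands follow enrichment and list length and not depth alone. By the constants of the lists, which stand for input over ChIP library size, H4K8ac had the largest ChIP library of the stage relative to its input, with a constant of 1.42 against 1.47 for H4K5bu, 1.53 for H4K8bu and 2.12 for H4K5ac. When every list was shortened to 28031 islands by fold, H4K8ac was still the mark most often missing from new round spermatid regions, but by far less. It was then missing in 1246 regions with 3 marks (43.8%), H4K5bu in 968, H4K5ac in 378 and H4K8bu in 251. For spermatocytes the same lists gave 807 regions without H4K8ac, 658 without H4K5bu, 487 without H4K5ac and 433 without H4K8bu. Of the 1246 regions, 971 (77.9%) overlapped a region of the full set, and these are 29.9% of its 3243. Shortening kept H4K8ac islands down to a fold of 1.06 in round spermatids. It removed those of the other marks there below 2.59 for H4K8bu, 2.89 for H4K5bu and 3.44 for H4K5ac. Spermatocyte islands were removed below 4.47 for H4K5ac, 3.41 for H4K8bu, 2.87 for H4K5bu and 2.77 for H4K8ac. A region new by the shortened lists may thus have a spermatocyte island in the full lists. New regions with all 4 marks rose from 2773 to 4301. The parts of these changes in the lower share were not tested separately.

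**Figure D2:**
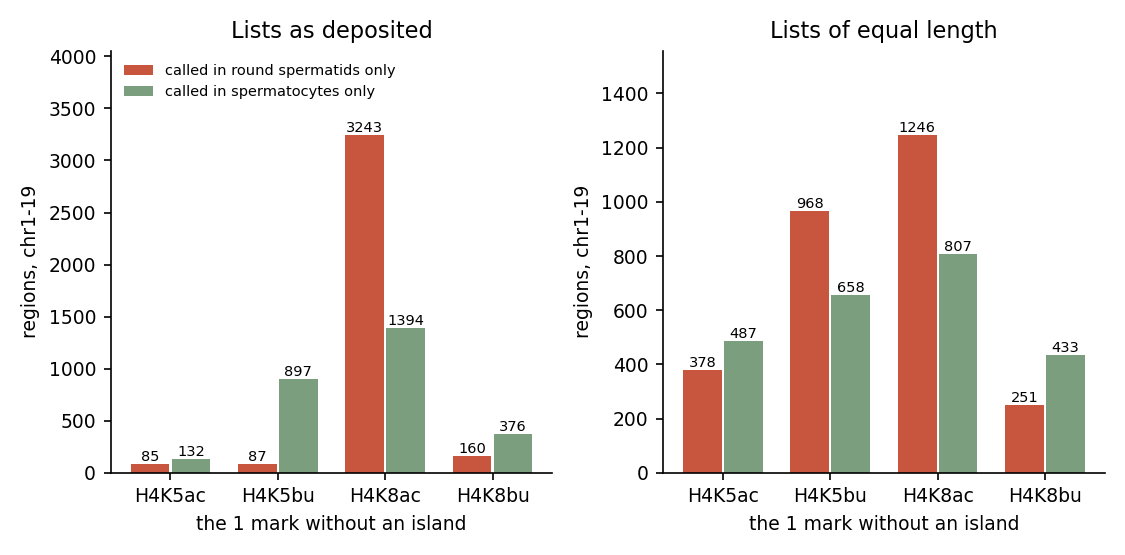
Number of autosomal regions with exactly 3 of the 4 marks in 1 stage and no mark in the other, by the mark without an island, in the lists as deposited (left) and in lists of 28031 islands each (right). H4K8ac has the tallest bar for round spermatids in both panels, 3243 and 1246 regions, and H4K5bu comes closer to it in lists of equal length, with 968.

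Of the 6016 new autosomal regions with H4K5ac, H4K5bu and H4K8bu in round spermatids, 53.9% (52.6 to 55.2) had no H4K8ac island. Over all 28852 autosomal regions with these 3 marks in round spermatids the share was 21.0%, and among the 22836 that also had an island in spermatocytes it was 12.3% (11.9 to 12.7). It was 32.7% (30.6 to 34.9) of the 1872 regions with 1 mark in spermatocytes and 9.09% (8.66 to 9.53) of the 17101 regions with all 4 there. These shares moved with list length, and with lists of 28031 islands 22.5% of new regions and 6.09% of regions also called in spermatocytes had no H4K8ac island. With the full lists, H4K8ac was missing in round spermatids from 16.0% (13.7 to 18.4) of the 971 regions that had the same 3 marks without H4K8ac in spermatocytes and at least these 3 marks in round spermatids.

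Weaker new regions lacked H4K8ac more often. By the number of H4K8bu reads, the share without H4K8ac was 71.1% (68.8 to 73.4) in the lowest quartile of new regions, which had up to 75 reads. It was 62.9% up to 89 reads, 48.4% up to 110 reads and 32.6% (30.2 to 35.1) above. By H4K8bu fold the range was narrower, from 61.4% (58.9 to 63.9) up to a fold of 2.46 to 49.2% (46.6 to 51.7) above 3.42. By H4K5ac fold it ran from 61.3% up to 3.02 to 47.7% above 4.23. Reads grow with island length as well as with fold, and by H4K8bu island length the share ran from 63.8% up to 2000 bp to 44.3% above 3400 bp.

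New regions lacked H4K8ac more often than regions of like H4K8bu signal that had already been called in spermatocytes. In classes of 16 combinations of H4K8bu reads and fold, with at least 131 regions of each kind, the share was higher among new regions in all 16. With the classes weighted as in the new regions, 40.7% of regions already called in spermatocytes lacked H4K8ac, against 53.9% of new ones and 12.3% without weighting. With lists of equal length, weighted in the same way, the shares were 15.5% and 22.5%, and new regions had the higher share in 13 of 16 classes. The highest classes have no upper limit, and regions also called in spermatocytes reach much higher values there, so likeness is only approximate. Region length was not matched. Spermatocyte islands can extend the regions also called in that stage, and an H4K8ac island anywhere in the joined region counts. The part of this joining in the difference was not tested. Whether the new regions had less H4K8ac signal cannot be read from the lists, which give none for these places.

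**Figure D3:**
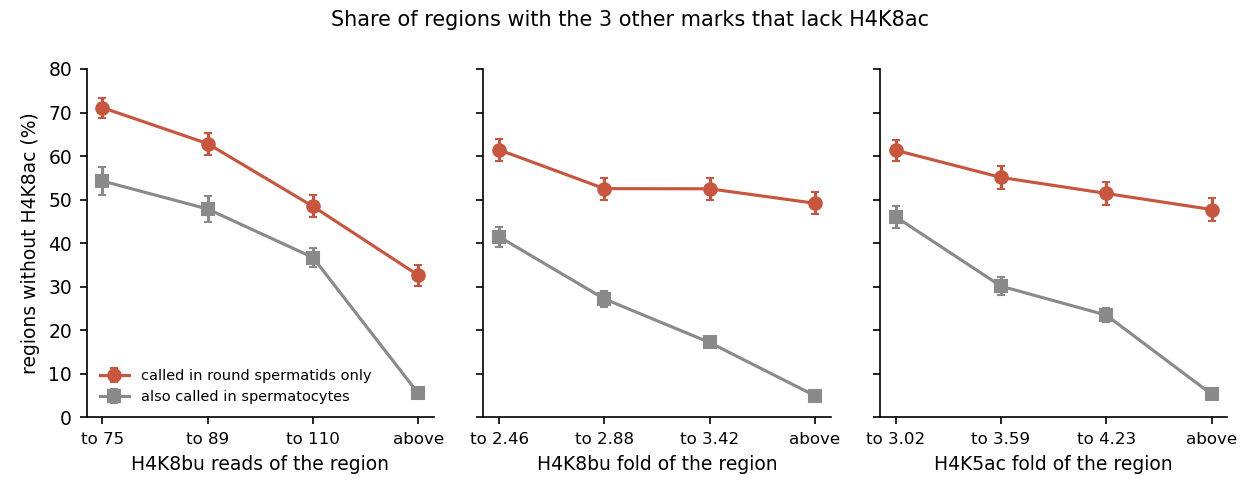
Percent of regions with H4K5ac, H4K5bu and H4K8bu in round spermatids that have no H4K8ac island, by class of H4K8bu reads, H4K8bu fold and H4K5ac fold (class limits are the quartiles of new regions), for regions called in round spermatids only and regions also called in spermatocytes; bars are exact 95% intervals, counting error only. The new regions run from 71.1% to 32.6% over the classes of H4K8bu reads and lie above the other regions in every class shown.

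The lists show how weak an H4K8ac island could be and still be called. The middle 50% of members had 35 to 59 input reads under their H4K8bu islands. On the autosomes, 9308 round spermatid H4K8ac islands had as many input reads. Their fold had a median of 2.73, a 5th percentile of 1.86 and a minimum of 1.37, and their ChIP reads had a 5th percentile of 58 and a minimum of 37.

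In the full lists, the balance of butyrylation and acetylation at lysine 5 was nearly the same with and without H4K8ac. The rule did not use this ratio, but both folds had to pass calling in each set, which limits the values it can take. The median log2 ratio of H4K5bu to H4K5ac fold was -0.31 (-0.32 to -0.29) in the regions without H4K8ac and -0.33 (-0.34 to -0.32) in new regions with all 4 marks, a difference of 0.021, which was 0.11 with lists of equal length. In regions with all 4 marks in both stages it was -0.42. The ratio of both butyryl marks, H4K8bu to H4K5bu, had a median of -0.00042 (-0.012 to 0.014) without H4K8ac and 0.010 with it. H4K8bu to H4K5ac had medians of -0.30 and -0.32. The H4K5bu fold exceeded the H4K5ac fold in 563 of the 3243 regions (17.4%). The balance at lysine 5 had an SD of 0.35 over the regions, and the counting of ChIP reads alone gives one of 0.24, with the counting of input reads in addition, so the order of single regions by balance is uncertain.

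The strongest regions were ranked by their mean log2 fold (H4K5ac, H4K5bu, H4K8bu) among the 2786 with at least 50 ChIP reads in each list. The first lay on chromosome 14 from 68820801 to 68822400. It held 71 H4K5ac reads over 17 input reads, 84 H4K5bu reads over 22 and 77 H4K8bu reads over 13. Its folds were 8.84 (5.15 to 16.0), 5.63 (3.49 to 9.46) and 9.06 (4.995 to 17.8), and no other list had an island there. The nearest H4K8ac island of round spermatids was 41600 bp away, and the nearest spermatocyte island 3600 bp away. A second region on chromosome 14, from 80490601 to 80492400, had 65 H4K5ac reads over 14 input reads, 56 H4K5bu reads over 15 and 50 H4K8bu reads over 11, with folds of 9.83 (5.46 to 19.0), 5.50 (3.07 to 10.5) and 6.95 (3.57 to 14.8). It lay 90200 bp from the nearest spermatocyte island and 89800 bp from the nearest round spermatid H4K8ac island.

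The strong region with the most reads lay on chromosome 5 from 111390201 to 111395400 and was 5200 bp long. Its 101 H4K5ac, 136 H4K5bu and 159 H4K8bu reads stood over 27, 30 and 35 input reads, and its folds of 7.92 (5.13 to 12.6), 6.68 (4.47 to 10.3) and 6.95 (4.79 to 10.3) were alike for the 3 marks. On chromosome 7 from 20984801 to 20987200 the folds were 6.95 (4.21 to 11.9), 7.51 (3.89 to 15.9) and 6.93 (3.92 to 13.1), and the nearest spermatocyte island was 400400 bp away. The fifth lay on chromosome 18 from 70611001 to 70613400, with folds of 10.0 (5.16 to 21.3), 5.81 (3.37 to 10.6) and 4.95 (2.997 to 8.50). All of these intervals lie above 1, and within each region the intervals of the 3 marks overlap.

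The longest regions were weaker. The first, on chromosome 10 from 7655801 to 7668200, measured 12400 bp and had 155 H4K5ac reads over 179 input reads, 286 H4K5bu reads over 181 and 250 H4K8bu reads over 204. Its folds were 1.83 (1.47 to 2.29), 2.33 (1.93 to 2.82) and 1.87 (1.55 to 2.27). The second, on chromosome 12 from 73448401 to 73459800, had folds of 4.03 (3.16 to 5.16), 2.70 (2.26 to 3.23) and 3.06 (2.42 to 3.88), with an H4K5bu island of 11400 bp and H4K5ac and H4K8bu islands of 6600 bp. The third, on chromosome 3 from 54507001 to 54517800, had folds of 2.95, 3.10 and 2.38. On chromosome 10 from 76316201 to 76327000 they were 1.88, 2.28 and 1.58, and on chromosome 8 from 75034401 to 75044800 they were 3.54, 2.60 and 2.83. H4K5bu had the highest fold in 3 of these 5 regions, where H4K5ac led in most regions of the set.

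At the edge of the rule, calls rested on small differences from input. The weakest list of a member had a deposited q-value of 0.0088, for H4K5bu on chromosome 6 from 130265401 to 130269600, where 83 ChIP reads over 94 input reads gave a fold of 1.30 (0.957 to 1.77). H4K5ac there had a fold of 2.47 (1.65 to 3.71) and H4K8bu one of 1.501 (1.14 to 1.98). The next were on chromosome 8 from 36197801 to 36199400, with folds of 1.58, 1.47 and 1.63, and on chromosome 2 from 19430801 to 19431200, with folds of 2.04, 1.56 and 1.57 over 400 bp. Such weak calls were rare: 29 of the 3243 regions had a q-value above 1e-04 in their weakest list. Just outside the rule, the new region with the weakest H4K8ac call lay on chromosome 13 from 75769001 to 75772000. Its 66 H4K8ac reads over 69 input reads gave a fold of 1.36 (0.953 to 1.93), and its folds for H4K5ac, H4K5bu and H4K8bu were 1.84, 1.78 and 1.76. The next 2 had H4K8ac folds of 1.36 on chromosome 4 from 71567201 to 71570200 and 1.45 on chromosome 9 from 27020601 to 27021200.

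**Figure D4:**
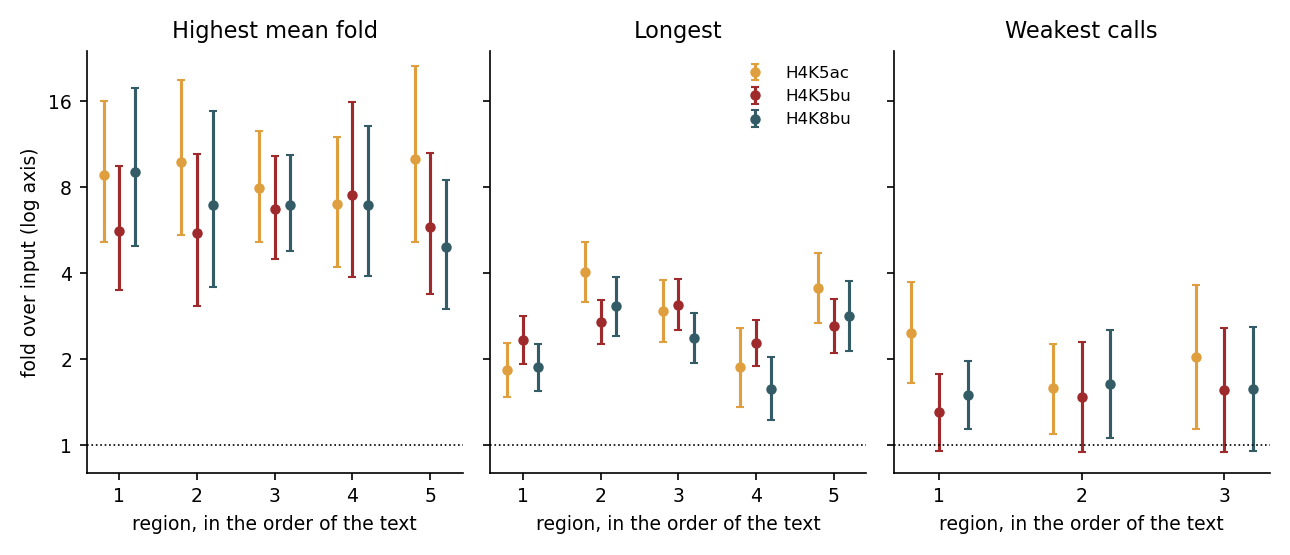
Fold over input (log axis) of H4K5ac, H4K5bu and H4K8bu in round spermatids for the 5 regions with the highest mean fold, the 5 longest and the 3 with the weakest calls; bars are exact conditional 95% intervals, counting error only. Intervals of the strongest regions lie above the dotted line at 1, from 2.997 upward, and 4 intervals of the weakest calls reach below it.

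The most uneven regions at lysine 5, among those with at least 50 reads of both marks, were led on the acetyl side by chromosome 5 from 19395401 to 19399000. There, 53 H4K5ac reads over 13 input reads gave a fold of 8.63 (4.64 to 17.3) in an island of 800 bp, and 73 H4K5bu reads over 49 gave one of 2.196 (1.51 to 3.22) in an island of 2400 bp. H4K8bu had a fold of 3.44 (2.30 to 5.25). The region on chromosome 9 from 92213801 to 92217200 had folds of 9.28 (5.02 to 18.5) for H4K5ac and 2.67 (1.93 to 3.74) for H4K5bu. On the butyryl side, chromosome 10 from 22092001 to 22095600 had an H4K5ac fold of 1.59 (1.15 to 2.196) in 3600 bp and an H4K5bu fold of 3.72 (2.26 to 6.32) in 1000 bp. Chromosome 1 from 128668201 to 128670200 had 3.86 (2.50 to 6.05) in 1800 bp and 7.48 (4.09 to 14.8) in 1400 bp. In all 4 of these regions the more enriched mark had the shorter island, and islands of unequal extent make the folds of a region less comparable. The intervals of these extremes are not adjusted for their choice among all regions.

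Few of the regions lay close to a spermatocyte island or to an H4K8ac island of round spermatids. The nearest spermatocyte island of any mark was a median of 26800 bp away (25200 to 28600), and 436 regions (13.4%) had one within 5 kb. By mark, the median distance was 32000 bp to a spermatocyte H4K5ac island, 34200 bp to H4K8bu, 42200 bp to H4K5bu and 43200 bp to H4K8ac, in the order of the lengths of these lists. The nearest H4K8ac island of round spermatids was a median of 42000 bp away (39400 to 44000), within 1 kb in 21 regions (0.648%) and within 5 kb in 247 (7.62%). So for few regions did an H4K8ac island lie beside the other marks without touching them. The new regions with 4 marks had about the same distances, 28000 bp to any spermatocyte island and 42000 bp to the nearest H4K8ac island of another region.

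Exceptions were found on chromosome 3 from 41793601 to 41797000, where an H4K8ac island directly adjoined the region without sharing a base. The H4K5ac fold there was 3.60 (2.51 to 5.21), the H4K5bu fold 2.77 (2.00 to 3.87) and the H4K8bu fold 3.00 (2.17 to 4.20). On chromosome 10 from 67948201 to 67953400 the gap to H4K8ac was 200 bp. On chromosome 1 from 135255401 to 135258600 it was 400 bp, and a spermatocyte island adjoined the same region.

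**Figure D5:**
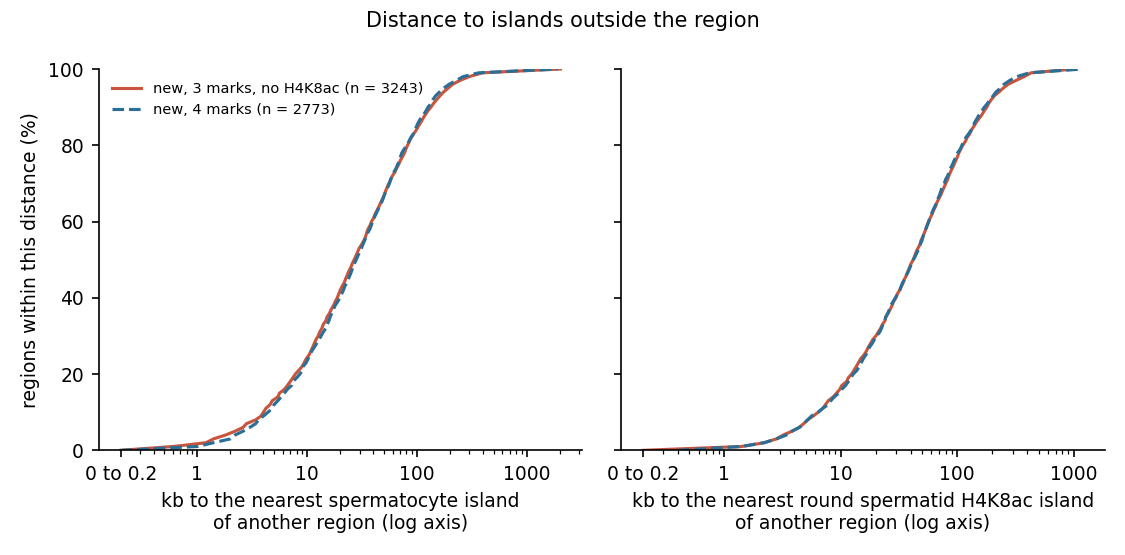
Percent of regions whose nearest spermatocyte island (left) or nearest round spermatid H4K8ac island of another region (right) lies within a given distance in kb (log axis), for new regions without H4K8ac and new regions with all 4 marks. The curves of the 2 sets lie on each other, with medians of 26800 and 28000 bp on the left and 42000 bp for both on the right.

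Along the chromosomes the regions had more new regions as neighbours than their overall share. Of the regions next to a member on either side, 10.8% were members, which make up 5.57% of all autosomal regions, and 9.01% were new regions with 4 marks, which make up 4.76%. Regions called in both stages made up 38.9% of neighbours and 48.1% of all regions, and regions called in spermatocytes only made up 24.3% and 29.7%. Neighbours of new regions with 4 marks were divided in the same way, with 10.5% members and 10.4% of their own kind. Regions called in spermatocytes only also had more of their own kind beside them, 36.5% of neighbours against 29.7% of all regions. Lying beside regions of the same stage was thus not particular to new regions. Runs of 2 or more members with no other region between them held 656 members (20.2%), and 40 runs had 3 or more. Members were a larger share of all regions on chromosomes 3 (7.21%), 6 (6.88%) and 1 (6.76%) than on chromosomes 11 (3.87%), 9 (4.09%) and 19 (4.38%). New regions with 4 marks differed in the same direction. Their shares were 6.24%, 5.12% and 5.62% on chromosomes 3, 6 and 1, and 3.13%, 3.64% and 2.78% on chromosomes 11, 9 and 19. Of the new regions with the 3 marks, the share without H4K8ac ran from 47.5% (40.8 to 54.3) on chromosome 18 to 61.2% (51.7 to 70.1) on chromosome 19, and the intervals of these extremes overlap.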

How the data were processed

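The 8 deposited lists held islands called with SICER on mm9. The submitters' processing notes name CASAVA 1.8.2, Bowtie2 2.2.5, deepTools 1.5.11 and SICER. Their settings and the handling of duplicate reads are not given in the sources used here. Each list gave, per the values in the deposited files, the counts of ChIP and input reads per island, a p-value, a q-value and a fold. The deposited fold equals ChIP over input reads, a ratio, multiplied by a constant of the list. Where a list had several islands in a region, their reads were summed. The lists held 4768412 to 9230541 ChIP reads inside islands, which is not the depth of the libraries. Library size was known only as that constant. PCR reads are not independent molecules. Intervals of shares were exact (Clopper-Pearson), of folds exact conditional binomial, and of medians from order statistics.

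Positions are mm9, counted from 1. Regions were not assigned to genes, because the RefSeq gene table used the build GRCm38.p6. Named regions were the 5 strongest and 5 longest, and 3 each by balance per direction, weakest call on each side of the rule, and distance. The members and these rules were chosen with earlier results of these data known. Joining, membership, medians and intervals were tested on simulated lists. Python 3.11.15, pandas 2.3.3 and SciPy 1.17.1 were used.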

Additional observations from a re-analysis of the deposited data

How the results depend on the processing

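The number of regions and the share without H4K8ac depended on how many islands each list contributed. With lists of 28031 islands each, 1246 regions were found in place of 3243. Of new regions with the 3 other marks, 22.5% lacked H4K8ac in place of 53.9%. The spermatocyte lists were shortened too, so which regions counted as new changed as well. The median folds were then 4.35 for H4K5ac, 3.50 for H4K5bu and 3.40 for H4K8bu. The lysine 5 balance exceeded that of new regions with 4 marks by 0.11 (log2) in place of 0.021. Keeping the 50% of islands with the highest fold gave 1268 regions and a share of 33.9%. Without regard to H4K8ac, an alternative chosen after seeing the data, the rule gave 6016 regions. Other settings were a q-value below 1e-04, gaps of up to 1000 bp, an overlap of 50% of the shorter island and removal of dense input. With these the number of regions was 3113 to 3289 and the share 53.6 to 54.6%. Limits on distance were also chosen after seeing the data. Over 5000 bp from spermatocyte and round spermatid H4K8ac islands lay 2757 regions. Among new regions over 5000 bp from spermatocyte islands only, the share was 53.6%. The median folds were recomputed with that q-value, those gaps and a minimum of 50 ChIP reads, and stayed within the intervals of the main medians. The difference in balance was 0.019 to 0.022 under these 3 settings and 0.0079 in regions with 1 island of each lysine 5 mark of like length (854 without and 779 with H4K8ac). No paired analysis was possible because each group had 1 library. What a missing H4K8ac island can show is limited, since the lists hold no reads outside islands.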

Other observations

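On X, which the rule leaves out, the same set of marks was found in 317 new regions. Of the 477 new X regions with H4K5ac, H4K5bu and H4K8bu, 66.5% (62.0 to 70.7) had no H4K8ac island. On chromosomes 1 to 19 the share was 53.9%. The highest share on a single autosome was 61.2% (51.7 to 70.1), of 116 regions on chromosome 19. That interval overlaps the interval of X. The X regions were stronger, with a median H4K5ac fold of 4.37 (4.11 to 4.67), an H4K5bu fold of 3.44 (3.21 to 3.63) and an H4K8bu fold of 3.55 (3.39 to 3.71), from a like number of ChIP reads (72, 70 and 81) over fewer input reads (35, 31 and 35). Input density under their islands was lower, with medians of 15.8 to 16.4 reads per kb against 18.2 to 18.8 on autosomes; its part in the higher folds was not tested.

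The window with the most members, chosen after the counts were seen, was chromosome 15 from 65000001 to 66000000. It held 8 of them among 16 regions, beside 1 new region with 4 marks, 4 regions called in both stages and 3 called in spermatocytes only. The longest run, 5 members with no other region between them, spanned 467 kb of this window, from 65104601 to 65572000. Over the 8 members the H4K5ac fold ran from 2.94 to 4.96, the H4K5bu fold from 2.42 to 4.49 and the H4K8bu fold from 2.01 to 4.52. Among these 8 members, the highest butyryl folds were in the region from 65890001 to 65892200, with 67 H4K5bu reads over 22 input reads and 68 H4K8bu reads over 23.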
